A study of Mus musculus with 2 samples.

Results

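The genes described here encode the 7 subunits of the NMDA receptor of the mouse, Grin1, Grin2a, Grin2b, Grin2c, Grin2d, Grin3a and Grin3b. They were taken by name from the 21938 protein-coding genes that GENCODE M21 places on the 21 chromosomes used here. The study measured DNase I accessibility in tissue of the right cerebral cortex from 2-month-old males of B6CASTF1/J, the F1 hybrid of C57BL/6J and CAST/EiJ, with no treatment named in the labels. The single group holds 2 libraries, replicate 1 from the animal numbered 5 and replicate 2 from the animal numbered 6. Both carry the same donor record in the labels, so that they came from separate animals rests on those numbers. With 1 group there was no contrast between conditions and no test was possible, and each value is given per library.

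The NMDA receptor is a glutamate-gated cation channel that opens when glutamate and a co-agonist, glycine or D-serine, are bound while depolarisation lifts a magnesium block. It admits calcium and is a main trigger of synaptic plasticity in the cortex. GluN1, from Grin1, is the obligatory subunit and binds the co-agonist, GluN2A to GluN2D bind glutamate and set the kinetics, and GluN3A and GluN3B bind glycine and lower calcium permeability. GluN2A and GluN2B are the main GluN2 subunits of the adult forebrain, whereas GluN2C is best known from cerebellar granule cells and GluN2D from the diencephalon, the brainstem and some interneurons.

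DNase I cuts DNA where nucleosomes are displaced, so a peak is a stretch with many cuts, and a footprint is a short run of protected bases within accessible DNA. A promoter peak here is a peak of the stricter deposited set that touches a base within 1000 bp of any annotated transcript start of the gene, and its height is the signal deposited by the authors, whose scaling the sources used here do not state. The tissue was bulk cortex, in which fewer cells with an open site and less accessibility per cell cannot be told apart. Replicate 1 had 91818 peaks and 394531 footprints, and replicate 2 had 75245 peaks and 241645 footprints. Over 58302 peaks of replicate 1 with exactly 1 overlapping peak in replicate 2, the median height ratio of replicate 1 to replicate 2 was 1.38. Of 7 marker genes of cortical excitatory neurons, 7 had a promoter peak in replicate 1 and 5 in replicate 2, Tbr1 and Slc17a7 being without one in replicate 2. Of the markers of other cells, 2 and 2 of 6 for inhibitory neurons, 3 and 3 of 5 for astrocytes, 2 and 2 of 6 for oligodendrocytes and their precursors, 1 and 0 of 4 for endothelium and 0 and 0 of 5 for microglia had one in replicates 1 and 2. Of the markers of other tissue, 2 and 1 of 5 for cerebellar granule cells, 1 and 0 of 4 for hindbrain and spinal cord and 0 and 0 of 4 for liver had one. The cerebellar genes with a peak were Cbln3 and Zic1, and each peak also lay near a start of another coding gene, Khnyn and Zic4. Across the 21938 protein-coding genes, the share with such a peak was 63.4% for replicate 1 and 59.3% for replicate 2. The marker lists hold 4 to 7 genes each, so their counts are a description beside that share and no test of the tissue.

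The sequences below are those to which the results refer. They are written on the coding strand of each gene in mm10 (GRCm38.p6). In the first 7, capitals mark bases that lay inside footprints of both libraries. The first is the tallest promoter peak of any of the 7 genes, the second the exonic peak of Grin2d, its tallest promoter peak in both libraries, the next 4 are intronic peaks shared by both libraries, and the seventh is the peak upstream of Grin2c. The last 2 are RefSeq promoter windows (GRCm38.p6), from 250 bases before to 50 after the start, of the genes without any promoter peak, with GGGCGG in capitals for Grin2c and CG in capitals for Grin3b. RefSeq windows were at hand for 4 of the 7 genes, the others being Grin1 and Grin2d.
Grin1 promoter peak, chr2:25319081-25319340, minus strand: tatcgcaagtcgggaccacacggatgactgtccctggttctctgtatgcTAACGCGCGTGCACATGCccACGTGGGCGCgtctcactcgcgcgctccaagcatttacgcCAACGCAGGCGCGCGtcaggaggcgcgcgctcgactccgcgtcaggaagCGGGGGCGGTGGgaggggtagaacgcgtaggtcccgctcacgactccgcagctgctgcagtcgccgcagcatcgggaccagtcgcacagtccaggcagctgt
Grin2d exonic peak, chr7:45866041-45866300, minus strand: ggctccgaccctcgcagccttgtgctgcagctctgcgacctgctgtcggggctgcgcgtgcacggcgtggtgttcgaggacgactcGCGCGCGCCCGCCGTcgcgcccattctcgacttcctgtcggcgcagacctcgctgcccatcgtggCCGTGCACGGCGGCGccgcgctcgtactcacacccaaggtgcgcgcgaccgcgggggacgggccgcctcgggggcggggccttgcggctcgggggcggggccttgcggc
Grin2b tallest intronic peak, chr6:135907601-135907840, minus strand: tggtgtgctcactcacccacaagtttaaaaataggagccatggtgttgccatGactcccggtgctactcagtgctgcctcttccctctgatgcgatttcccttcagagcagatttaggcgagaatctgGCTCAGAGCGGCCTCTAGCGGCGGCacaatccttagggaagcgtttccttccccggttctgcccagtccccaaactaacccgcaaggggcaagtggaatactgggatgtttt
Grin2b second intronic peak, chr6:135859561-135859780, minus strand: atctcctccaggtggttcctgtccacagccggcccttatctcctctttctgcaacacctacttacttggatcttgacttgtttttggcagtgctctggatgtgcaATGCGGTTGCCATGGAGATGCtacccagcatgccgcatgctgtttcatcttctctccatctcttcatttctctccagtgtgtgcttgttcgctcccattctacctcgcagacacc
Grin2a tallest intronic peak, chr16:9801421-9801700, minus strand: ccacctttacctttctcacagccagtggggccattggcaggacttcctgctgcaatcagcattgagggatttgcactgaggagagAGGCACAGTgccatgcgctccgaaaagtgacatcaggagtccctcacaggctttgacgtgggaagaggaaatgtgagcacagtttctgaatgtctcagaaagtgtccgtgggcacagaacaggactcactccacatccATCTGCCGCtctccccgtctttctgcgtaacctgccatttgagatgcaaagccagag
Grin3a tallest intronic peak, chr4:49688750-49688960, minus strand: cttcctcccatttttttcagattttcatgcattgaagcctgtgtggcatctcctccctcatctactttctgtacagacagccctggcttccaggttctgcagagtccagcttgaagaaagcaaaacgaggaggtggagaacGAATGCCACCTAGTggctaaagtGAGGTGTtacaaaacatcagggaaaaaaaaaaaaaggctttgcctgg
Grin2c upstream peak, chr11:115270581-115270800, minus strand: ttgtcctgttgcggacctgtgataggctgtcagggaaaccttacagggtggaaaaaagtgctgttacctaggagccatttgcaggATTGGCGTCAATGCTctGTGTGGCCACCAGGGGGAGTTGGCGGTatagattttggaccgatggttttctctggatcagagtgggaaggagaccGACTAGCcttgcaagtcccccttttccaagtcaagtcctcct
Grin2c RefSeq promoter window, chr11:115267194-115267493, minus strand: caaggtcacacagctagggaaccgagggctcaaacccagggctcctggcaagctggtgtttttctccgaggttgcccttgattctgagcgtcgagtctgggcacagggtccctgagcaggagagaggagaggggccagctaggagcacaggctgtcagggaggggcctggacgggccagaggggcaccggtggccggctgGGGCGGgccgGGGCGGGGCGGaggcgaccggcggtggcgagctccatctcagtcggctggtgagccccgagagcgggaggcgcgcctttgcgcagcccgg
Grin3b RefSeq promoter window, chr10:79970474-79970773, plus strand: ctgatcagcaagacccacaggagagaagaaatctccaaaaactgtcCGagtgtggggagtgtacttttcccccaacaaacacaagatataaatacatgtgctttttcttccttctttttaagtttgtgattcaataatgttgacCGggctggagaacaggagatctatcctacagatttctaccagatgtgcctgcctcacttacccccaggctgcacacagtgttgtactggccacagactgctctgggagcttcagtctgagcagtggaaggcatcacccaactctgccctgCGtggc

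Grin1, Grin2a, Grin2b, Grin2d and Grin3a had a promoter peak in both libraries, and Grin2c and Grin3b in neither. For Grin2d the peak common to both libraries lay in a coding exon, and none lay at its best supported start. Thus 5 of 7 genes had a promoter peak in replicate 1, 5 of 7 in replicate 2 and 5 of 7 in both, where 63.4% of all protein-coding genes had one in replicate 1, 59.3% in replicate 2 and 58.7% in both. The same 5 genes also had a footprint inside a promoter peak in both libraries, as did 62.9% of protein-coding genes in replicate 1 and 58.2% in replicate 2. With 7 genes these shares are near the background and are not read as a property of the family.

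**Figure D1:**
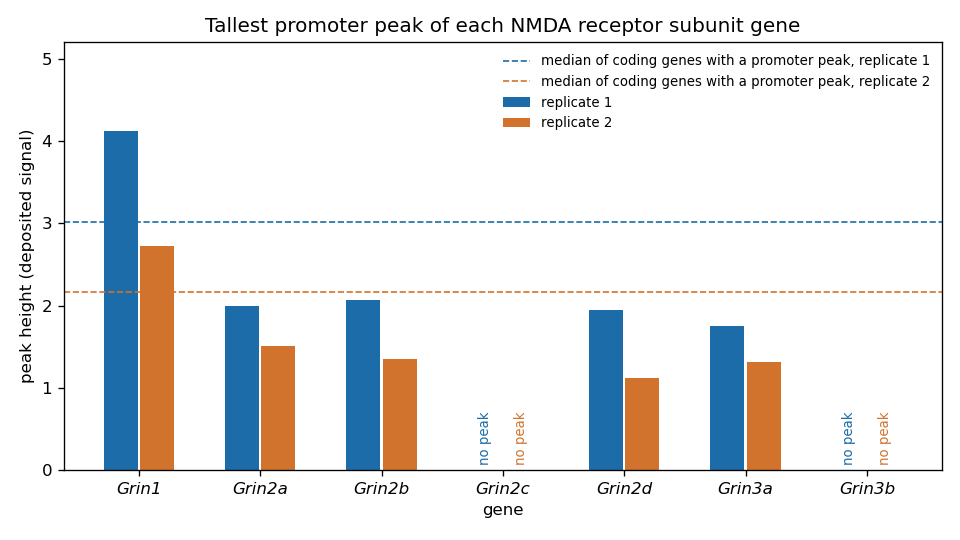
Height of the tallest promoter peak of each gene (vertical axis, deposited signal) in replicate 1 (blue bars) and replicate 2 (orange bars), 1 value per library and no error bar. Dashed lines give each library's median over protein-coding genes with a promoter peak, 3.02 in replicate 1 and 2.17 in replicate 2; Grin1 alone stands above them, and Grin2c and Grin3b have no peak.

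Grin1, the gene of the subunit found in every NMDA receptor, had the tallest promoter peak of the 7 genes in both libraries. Its height was 4.12 in replicate 1 and 2.72 in replicate 2, or 3.42 ± 0.99 (SD, n = 2). That exceeded the tallest promoter peak of 67.5% of genes with one in replicate 1 and of 64.2% in replicate 2, so the peak was above the median promoter but below the upper quartile of 4.61 and 3.19. The remaining 4 genes with a promoter peak all stood below the library median in both libraries.

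Among the glutamate-binding subunits, Grin2a had a tallest promoter height of 2.00 in replicate 1 and 1.51 in replicate 2 (1.76 ± 0.346, SD, n = 2). Grin2b had 2.07 in replicate 1 and 1.35 in replicate 2 (1.71 ± 0.505, SD, n = 2). Grin2d had 1.95 in replicate 1 and 1.12 in replicate 2 (1.54 ± 0.588, SD, n = 2). Grin2d was the lowest of these 3 genes in both libraries, and the order of Grin2a and Grin2b changed from one library to the other. All 3 heights were lower in replicate 2, so the SDs include a difference common to the genes. They do not measure the spread between genes, and differences between genes were not tested. Grin3a, the gene of a glycine-binding subunit most abundant in the juvenile brain, had 1.75 in replicate 1 and 1.31 in replicate 2 (1.53 ± 0.311, SD, n = 2). That was below these 3 genes in replicate 1 and between Grin2d and Grin2b in replicate 2. The height ratio of replicate 1 to replicate 2 was 1.51 for Grin1, 1.32 for Grin2a, 1.53 for Grin2b, 1.74 for Grin2d and 1.33 for Grin3a, all inside the central 95% of shared peaks genome-wide, 0.708 to 2.15.

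**Figure D2:**
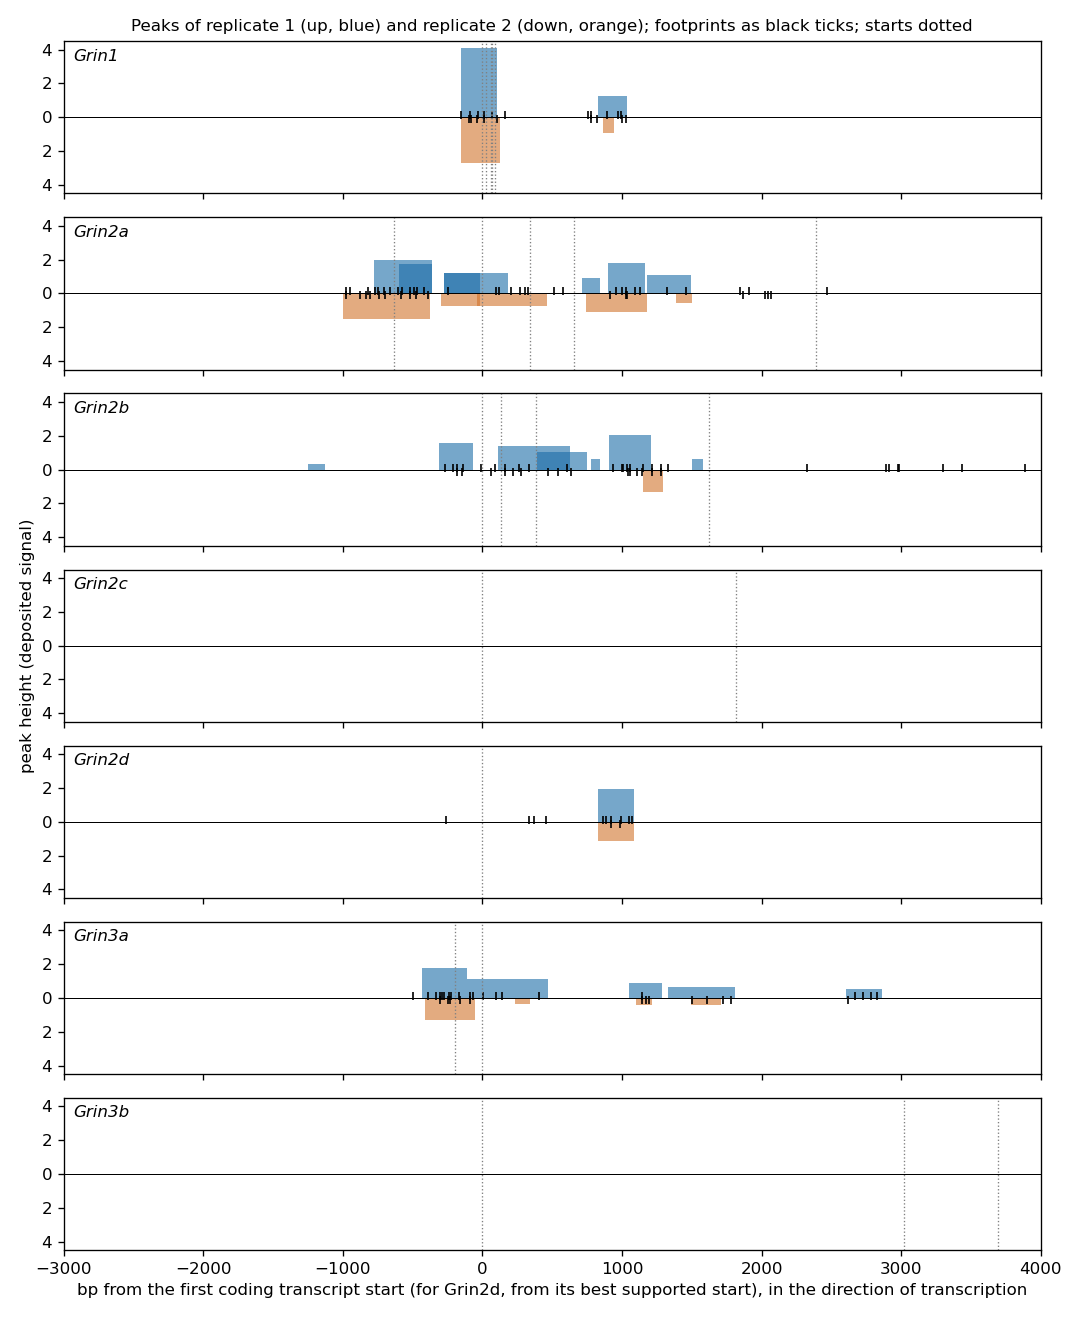
Peaks around the start of each gene, with distance in bp along the direction of transcription on the horizontal axis and deposited peak height on the vertical axis, replicate 1 upwards in blue and replicate 2 downwards in orange. Black ticks are footprint centres, dotted lines transcript starts, and darker bars places where peaks of 1 library overlap; Grin2c and Grin3b are empty, and Grin2b holds 1 narrow peak in replicate 2 against several in replicate 1.

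The promoter peaks of the 5 genes differed in shape. At Grin1 the tallest peak spanned 260 bp in replicate 1 and 280 bp in replicate 2 and lay across the cluster of coding starts, its centre 24 and 14 bp upstream of the nearest one. It held 5 footprints in each library, covering 104 and 66 bases, of which 55 bases were shared. A second, lower peak lay in the first kilobase of the gene, with a height of 1.28 in replicate 1 and 0.914 in replicate 2. Another, of 1.17, lay at an internal noncoding start in a coding exon and was listed for replicate 1 only.

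The Grin1 core was rich in CpG. The RefSeq window of Grin1 held 33 CpG with an observed to expected ratio of 1.20, higher than that of 99.4% of 21263 promoter windows, whose median was 13 CpG and 0.567. By the number of CpG it stood above 88.7% of them. In the printed peak, the bases footprinted in both libraries included GGGCGG (the SP and KLF factor motif) in full, 8 of the 9 bases of an overlapping match to GCGNGGGCG (the EGR factor motif) and 5 of the 6 bases of CACGTG (the CLOCK-type E-box). GGGCGG was present in 46.2%, GCGNGGGCG in 7.52% and CACGTG in 7.84% of all promoter windows. In these and the following searches both strands were read, and a match is a description of letters, not of binding.

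Grin2a had the broadest accessible promoter of the family. It carried 7 promoter peaks in replicate 1 and 5 in replicate 2, some of which overlap one another in the deposited set, and together they covered 1576 and 1937 bp. That was more open DNA than at 96.9% of genes with a promoter peak in replicate 1 and 99.5% in replicate 2, where the medians were 440 and 360 bp. The peaks ran from around the outermost annotated start into noncoding parts of exons, with heights of 0.939 to 2.00 in replicate 1 and 0.568 to 1.51 in replicate 2. Grin2a has 6 annotated starts, and the summed window of 7029 bp was accordingly larger than that of a gene with 1 start.

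Grin2b, whose subunit prevails early in development and persists in the adult forebrain, was the gene whose promoter differed most between the libraries in the number of peaks and in the open DNA they cover. Replicate 1 had 6 promoter peaks covering 1325 bp and replicate 2 had 1 peak of 147 bp, so that 94.2% of genes with a promoter peak had less open DNA than Grin2b in replicate 1 and 5.56% in replicate 2. The peak of replicate 2 overlapped the tallest of replicate 1, their centres lying 1224 and 1060 bp into the gene. In the larger, less strict peak set the difference was smaller, with 7 peaks in replicate 1 and 4 in replicate 2. The 3 peaks that the larger set added in replicate 2 had heights of 0.852, 1.13 and 1.17, and they lay where replicate 1 had peaks of 1.05, 1.40 and 1.58. Bases listed under a false discovery rate of 0.05 in the promoter windows numbered 2650 in replicate 1 and 1214 in replicate 2 at Grin2b, and 1642 and 517 at Grin2d.

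The tallest promoter peak of Grin2d lay in a coding exon, and the call in replicate 2 rested on it alone. The peak spanned the same 260 bases in both libraries, with 6 footprints in replicate 1 and 2 in replicate 2, and its lowest listed false discovery rate was 4.69e-32 in replicate 1 and 3.34e-14 in replicate 2, the lowest of the 5 genes with a promoter peak in replicate 1. Its near edge lay 829 bp downstream of the best supported GENCODE start and 381 bp downstream of the RefSeq start, and no peak lay at either start. With a window of 500 bp Grin2d had no promoter peak in replicate 2. The 200 bp around its centre had 76% GC and 37 CpG, where the medians over 27656 promoter peaks of replicate 1 were 61.5% and 13 CpG. The printed sequence held GGGCGG at 2 places near its 3′ end, outside the footprints shared by both libraries. Replicate 1 had 2 further low peaks, of 0.469 and 0.613, near another start, with no overlapping peak in replicate 2.

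Grin3a had 2 promoter peaks in each library. The taller spanned the outermost start, its centre 77 bp upstream of that start in replicate 1 and 37 bp in replicate 2. It held 8 footprints in replicate 1 and 5 in replicate 2. The lower covered the start of the coding transcripts in replicate 1, with a height of 1.13. In replicate 2 it was narrower, its centre 286 bp inside that start, and its height was 0.346, which exceeds the tallest promoter peak of 0.6% of genes with one in that library. The open DNA came to 900 bp in replicate 1 and 472 bp in replicate 2.

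Grin2c and Grin3b, the gene of a glycine-binding subunit known from motor neurons, had no accessible base at their starts by any of the deposited measures. Neither the smaller nor the larger peak set placed a peak there, no base was listed under a false discovery rate of 0.05, and no footprint was listed, in either library. Of all genes without a promoter peak, 15.8% in replicate 1 and 16.8% in replicate 2 did have listed bases, so an empty window was the usual state of such genes. The promoters differ in sequence. The Grin2c window had 70% GC, 22 CpG and 3 GGGCGG matches, 2 of them overlapping, and thus more CpG than 68.7% of promoter windows. Its ratio of observed to expected CpG was 0.629, above that of 54.6% of windows. The Grin3b window had 48.3% GC and 3 CpG, with a ratio of 0.172, and 18.1% of windows had fewer CpG and 18.9% a lower ratio.

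Across the gene bodies with 20000 bp on each side, the 7 genes held 92 peaks in replicate 1 and 65 in replicate 2. Sharing at least 1 bp with a peak of the other library were 56 (60.9%) of those in replicate 1 and 53 (81.5%) of those in replicate 2. Genome-wide these shares were 66.2% and 80.8%. By place, 21 peaks in replicate 1 and 11 in replicate 2 were promoter peaks of the 7 genes, 20 and 15 lay within 1000 bp of a start of another protein-coding gene, and 51 and 39 lay away from every coding start. Footprints numbered 443 in replicate 1 and 279 in replicate 2, of which 32.7% and 54.8% overlapped one of the other library, close to the 30.6% and 53.4% of all footprints.

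**Figure D3:**
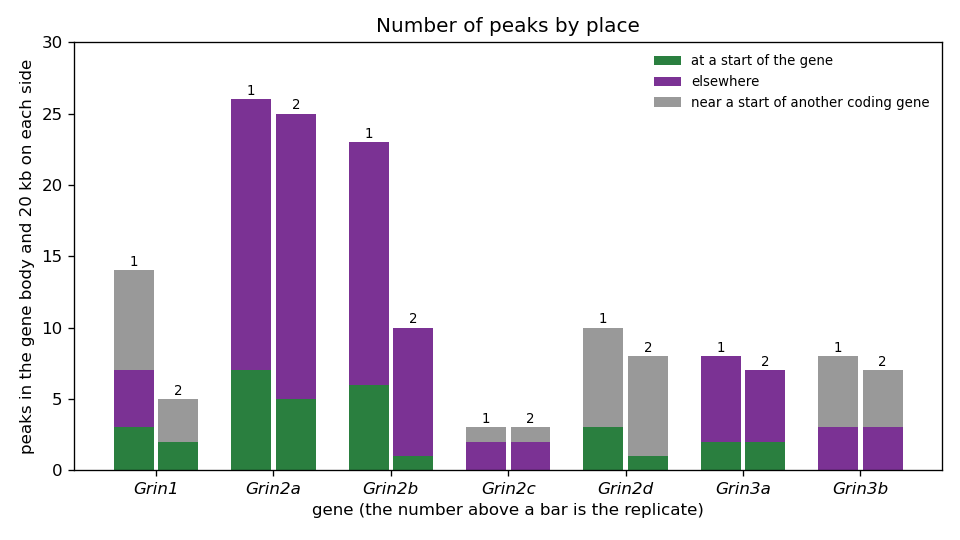
Number of peaks (vertical axis) in each gene body with 20 kb on each side, stacked by place, with replicate 1 as the left and replicate 2 as the right bar of each gene. Grin2a and Grin2b hold mostly peaks away from coding starts (purple), Grin2d and Grin1 mostly peaks near starts of neighbouring genes (grey) or their own (green), and the count of Grin2b falls to 10 in replicate 2, against 23 in replicate 1.

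The genes fell into a compact and a long group. Grin1 (28.0 kb, 14 and 5 peaks), Grin2c (18.1 kb, 3 and 3), Grin2d (46.5 kb, 10 and 8) and Grin3b (6.48 kb, 8 and 7) are short and lie among other genes, and the tall peaks around them belonged to those. Near Grin1 the peak at Man1b1 had heights of 8.52 and 5.75, and that between Ssna1 and Anapc2 7.37 and 3.72. A peak of 3.64 and 1.83 inside an intron of Grin2d lay at a start of Kdelr1, and one of 8.25 and 6.00 upstream of Grin3b lay at Wdr18. Neither Grin1 nor Grin2d had a shared peak away from coding starts. At Grin1 the only such peaks were 4 in replicate 1, the tallest of 1.42, all near the 3′ end of the gene.

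Grin2a (428 kb), Grin2b (460 kb) and Grin3a (184 kb) are long and hold most of the peaks away from starts. The density over the whole window was 5.56 peaks per 100 kb in replicate 1 and 5.35 in replicate 2 at Grin2a, 4.60 and 2.00 at Grin2b, and 3.57 and 3.12 at Grin3a, where the genome as a whole had 3.37 and 2.76. Grin2a and Grin3a therefore stood above the genome density in both libraries, and Grin2b above it in replicate 1 and below it in replicate 2. The genome density also counts DNA far from any gene. Of genes of similar length, 84.7% in replicate 1 and 94.5% in replicate 2 had fewer peaks than Grin2a. For Grin2b these shares were 75.9% and 30.4%. For Grin3a they were 37.7% and 36.7%, its 8 and 7 peaks lying below the medians of 9 and 8 for such genes.

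**Figure D4:**
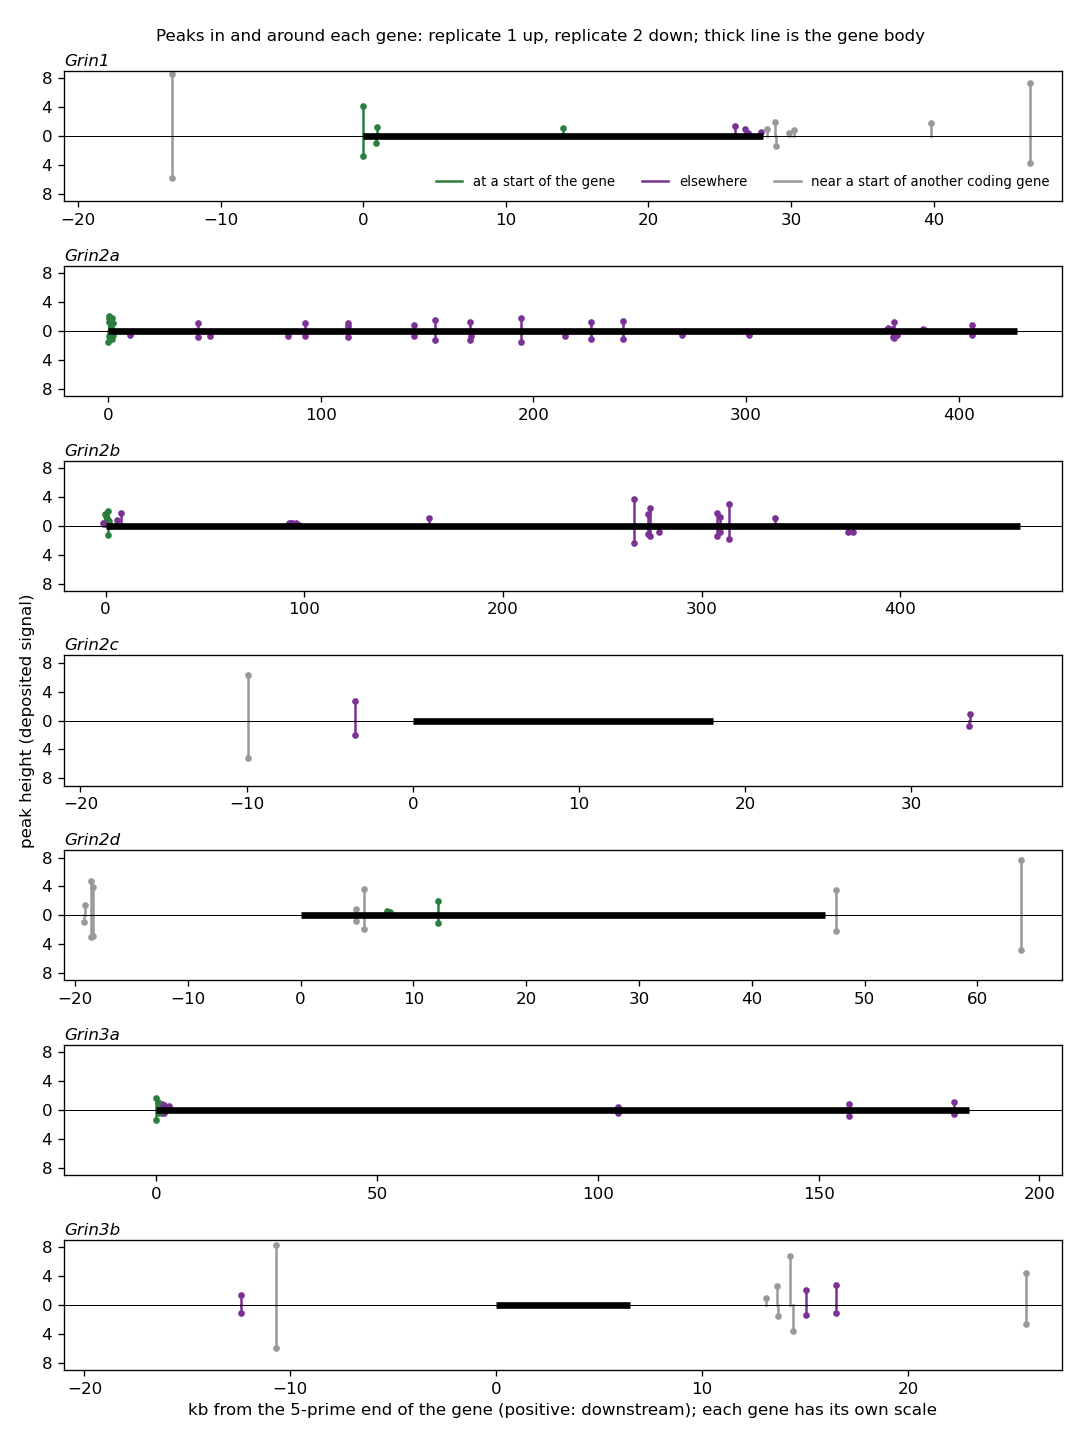
Peaks along each gene body with 20 kb on each side, at their distance in kb from the 5′ end (horizontal axis, own scale for each gene) and with their deposited height (vertical axis), replicate 1 upwards and replicate 2 downwards. Green marks promoter peaks of the gene, purple peaks away from coding starts and grey peaks near a start of another gene; the tall purple group at Grin2b lies 266 to 314 kb into the gene.

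Grin2b carried the tallest peak of the family away from coding starts in both libraries. All 6 of its shared peaks away from starts lay in intron 4 of 13 (transcript Grin2b-201), in a stretch of 48.3 kb that begins 266 kb downstream of the 5′ end. The tallest, chr6:135907601-135907840, had a height of 3.70 in replicate 1 and 2.35 in replicate 2 (3.03 ± 0.958, SD, n = 2), above 98.2% and 97.9% of peaks away from coding starts and above the promoter peak of Grin2b itself in both libraries. The next, chr6:135859561-135859780, had 3.05 and 1.87 (2.46 ± 0.84), and chr6:135899341-135899560 had 2.40 and 1.47 (1.93 ± 0.662). These 3 stood above the median distal height of 0.82 in replicate 1 and 0.73 in replicate 2. The same stretch held 6 peaks in replicate 1 and 7 in replicate 2, so that the difference in peak number between the libraries at Grin2b lay outside it.

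The tallest and second intronic peaks of Grin2b both held GTTGCCAT, the first 8 letters of the X-box recognised by RFX factors, a word that was searched for after these sequences had been seen. In the second peak all 8 bases lay inside footprints of both libraries, and in the tallest none did. The word was in 3 of the 51 peaks of replicate 1 away from starts around the 7 genes (5.88%), all at Grin2b. It was in 1.80% of 64162 such peaks genome-wide. Every peak was read over 200 bp around its centre. The tallest and second peaks, in which the word was seen, are among the 3, so these shares are no test of enrichment. The third, with a height of 1.03, had no overlapping peak in replicate 2. Outside the shared footprints, the tallest peak also matched the MEF2 motif, which 2.79% of the 64162 peaks held.

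Apart from its promoter and its intronic group, the peaks of Grin2b were each found in 1 library only. The tallest of replicate 1, with a height of 1.71, lay 7.86 kb into the gene, and the tallest of replicate 2, with 0.891, lay 376 kb into it. Replicate 1 further had 7 peaks with heights of 0.125 to 0.375, of which 6 lay within 5.13 kb of intron and 1 upstream of the gene, none overlapping a peak of replicate 2. Grin2a showed the like in replicate 1, with 7 peaks of 0.125 to 0.357 within 18.1 kb and no overlap with replicate 2, although replicate 2 had 3 other peaks there with heights of 0.614, 0.983 and 0.822. Heights under 0.4, a limit chosen after the values were seen, made up 8.36% of all peaks in replicate 1 and 10.3% in replicate 2. Their part in the peak counts of the 2 genes was not tested beyond the set of taller peaks in the closing section.

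Grin2a had 12 intronic peaks in replicate 1 that overlapped 11 of replicate 2, more than any other gene of the family. The tallest, chr16:9801421-9801700, had a height of 1.76 in replicate 1 and 1.51 in replicate 2 (1.63 ± 0.184, SD, n = 2), close to that of its own promoter and above 85.3% and 89.2% of distal peaks. The next, chr16:9841601-9841820 and chr16:9825199-9825415, had 1.57 and 1.27, and 1.28 and 1.21. Of the 12, 9 lay in intron 3 of 13 (transcript Grin2a-206), and the 12 together were spread from 42.1 to 406 kb into the gene. In the tallest, 5 of the 6 bases of a match to CAGATG, the NeuroD-type E-box, read as CATCTG on the printed strand, lay inside footprints of both libraries. That motif was in 24.6% of distal peaks. The tallest peak of replicate 1 alone had a height of 0.357 and that of replicate 2 alone 0.822.

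Grin3a had 5 shared peaks away from coding starts. Their heights were 0.901 and 0.806 in an intron 157 kb from the 5′ end, 1.10 and 0.484 in the last exon, 0.864 and 0.415 at 1.36 kb, 0.663 and 0.407 at 1.76 kb and 0.463 and 0.392 at 105 kb, in replicates 1 and 2. The first stood at 55.5% and 56.9% of distal peaks, near the median. In its printed sequence a match to the CTCF motif had 9 of its 11 bases in footprints of both libraries, and 11% of distal peaks held that motif. The only peak found in 1 library had a height of 0.526 in replicate 1.

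Grin2c, without an open promoter, had an open site 3448 bp upstream of its 5′ end. Its height was 2.68 in replicate 1 and 2.03 in replicate 2 (2.36 ± 0.465, SD, n = 2), above 94.7% and 96.2% of distal peaks, and it spanned the same 220 bases in both libraries. It held a match to the CTCF motif with all 11 bases inside footprints of both libraries, and beside it CCAAT, the NF-Y motif, read as ATTGG on the printed strand, also footprinted in full, a motif present in 21.8% of distal peaks. No further peak of the stricter set lay between this site and Grin2c, and on its other side the promoter of Fdxr had 6.36 and 5.18. A low peak of 0.839 and 0.753 lay downstream of the gene. Of the footprints in the Grin2c window, 60% of those of replicate 1 and 82.4% of those of replicate 2 overlapped one of the other library, the highest shares among the 7 genes. The window held only 20 and 17 footprints. Of these 8 and 9 lay in the peak at Fdxr and 2 and 4 in the upstream site.

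Grin3b had 3 shared peaks away from coding starts, none in the gene body. They had heights of 2.78 and 1.14, 2.08 and 1.35, and 1.37 and 1.04 in replicates 1 and 2, at 16.5 and 15.1 kb downstream and 12.4 kb upstream of the 5′ end. The first stood above 95.3% of distal peaks in replicate 1 and 77.8% in replicate 2. The gene body of Grin3b, like that of Grin2c, held no peak in either library.

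The AMPA and kainate receptor genes form related families of ionotropic glutamate receptors, and their promoters are given for comparison. Of the 4 AMPA receptor genes, 4 had a promoter peak in replicate 1 and 3 in replicate 2, and of the 5 kainate receptor genes 5 and 4. Among all protein-coding genes the shares were 63.4% and 59.3%. Tallest were by mean height Gria2, of the subunit that makes AMPA receptors impermeable to calcium, with 3.77 and 2.63, Gria4 with 2.09 and 1.27, Grik2 with 2.80 and 1.67, and Grik4 with 2.56 and 1.79. Grin1 stood above all of these in both libraries, with 4.12 and 2.72, while Grin2a, Grin2b, Grin2d and Grin3a lay below Gria2. The other genes of both families were lower than Grin2a and Grin2b wherever they had a promoter peak. Gria1 had 1.52 and 1.33, Grik1 1.03 and 0.561, and Grik3 0.651 and 0.561. Gria3, with 0.889, and Grik5, with 1.3 and also near a start of Zfp574, had one in replicate 1 only.

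Of 27 genes of NMDA receptor partners, 24 had a promoter peak in replicate 1 and 21 in replicate 2. All 7 anchoring genes, such as Dlg4, which encodes PSD-95 (2.88 and 1.97), and all 8 kinase and phosphatase genes, such as Camk2a (3.59 and 2.62), had one in both libraries. The tallest were Cdk5, a kinase that phosphorylates GluN2A (8.15 and 5.96, at a start shared with Slc4a2), and Ppp3ca, the catalytic subunit of calcineurin (7 and 4.48). Of 5 genes that set the co-agonist level, 3 had one in each library, among them Srr, the serine racemase (3.21 and 2.10, also near a start of Smg6). Dao, the D-amino acid oxidase, and Slc7a10, a transporter of D-serine, had none. Of 5 signalling genes 5 had one in replicate 1 and 3 in replicate 2, and of 2 further genes named for their link to subunit expression, Rest had one in replicate 1 only and Reln in neither. Set beside the background of 63.4% and 59.3%, these counts are a description, since the lists were put together with earlier results of these data known.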

How the data were processed

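The data are DNase-seq peaks, footprints and false discovery rates per base of 2 libraries of mouse right cerebral cortex. The descriptions deposited with the files trace each of them to the filtered mm10 alignments of 1 library, without pooling. Aligner, callers, thresholds and depth are not given in the sources at hand, nor is whether alignment allowed for CAST/EiJ alleles, and no counting interval could be given. The height of a peak is a signal deposited by the authors in each of a smaller and a larger peak set, and the smaller was used except where the larger is named. The deposited rates per base are q-values under 0.05, and footprints were deposited with 0.01 in every row, taken to be a p-value threshold.

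Chromosome names and ends matched GRCm38.p6. Genes and starts came from GENCODE M21, promoter windows from RefSeq. Overlap meant at least 1 bp. All 7 members were named, with the 2 tallest promoter peaks of each related list and those with none in either library (1 related list is not reported here), and around each member the 3 tallest shared peaks away from coding starts and the tallest of 1 library only. Other members of lists, markers and neighbours are named as examples chosen after their values were seen. The members and lists were chosen with earlier results of these data known. SDs are over 2 libraries, which may differ for technical reasons. Motifs were 14 consensus words, plus GTTGCCAT added after the data were seen, read on both strands. SP and KLF factors were searched as GGGCGG, EGR as GCGNGGGCG (which can overlap the SP word), NRF1 as GCGCANGCG, NF-Y as CCAAT, CREB as TGACGTCA, AP-1 as TGANTCA, NeuroD as CAGATG, CLOCK as CACGTG, NFI as TTGGCA, the TATA box as TATAAA, and REST, CTCF, MEF2 and SRF by consensus. Python 3.11.15, numpy 2.4.6 and pysam 0.24.0 were used. Promoter assignment, overlap and motif search were tested on simulated data and found all 200 planted promoter peaks, 500 planted overlaps and 600 planted motif words.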

Additional observations from a re-analysis of the deposited data

How the results depend on the processing

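Of 24 alternative values of the 5 summary results with both libraries, 19 kept within 1.5 times the main count or 1 SD of the main share. The mean number of peaks around the 7 genes, 78.5, became 147.5 with the larger peak set and 51 with the taller 50% of the smaller set. The mean number of footprints, 361, became 230 over the gene bodies with no flank and 212 when only footprints inside a peak were counted. The mean share of peaks with an overlap in the other library, 71.2%, became 51.74% when 50% of both peaks had to overlap. Leaving out either library gave 65 to 92 peaks, 279 to 443 footprints and a share of 60.9% to 81.5%. The count of genes with a promoter peak was 5 in both libraries with either peak set, the taller 50% or a window of 2500 bp, but 4 in replicate 2 within 500 bp, where Grin2d had none. At the 5′ end of the gene only, it was 4 in replicate 1 and 3 in replicate 2, Grin2d lacking one in both and Grin2b in replicate 2. Without the peak in a coding exon of Grin2d, an alternative chosen after seeing the data, it was 5 in replicate 1 and 4 in replicate 2. Of 22 alternative promoter heights with both libraries 21 equalled the main value. They picked the same tallest peak again, so they are no test of the heights. That of Grin2d became 2.735 within 2500 bp, where the peak of 3.64 and 1.83 near the start of Kdelr1 was taken in. The 22 leave out Grin2d within 500 bp, and Grin2b and Grin2d at the 5′ end only, where a library had no promoter peak. No paired analysis was possible because the study has 1 group. Depth was not given, so an absent peak is an absence from the deposited sets, and 2 libraries give no more than a range.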
